A study of Sus scrofa with 21 samples.

Results

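Enteroendocrine cells are the hormone-producing cells scattered through the gut epithelium. Their products are stored in dense-core granules, which also hold the acidic granin proteins, and are released when receptors on the cell sense nutrients, bile acids or nervous input. In the distal small intestine the best known types are L cells, which process proglucagon into the glucagon-like peptides, and N cells, which make neurotensin, while the cells that make the incretin GIP are known mainly from the proximal small intestine. A set of 10 genes of these cells was fixed by name: the granins CHGA and CHGB, the hormone genes PYY, GCG, NTS, CCK, GIP and SST, the serotonin-synthesis gene TPH1 and the transcription factor gene NEUROD1. Of these 10 genes, 8 were found by their Ensembl gene name among the 18661 genes of the files. PYY and TPH1 were not analysed here. Each of the 8 had a single listed transcript, and 7 passed the filter on low counts.

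The samples came from the distal small intestine of 21 piglets of the Danish Landrace/Yorkshire breed, which were euthanised when 24 to 25 days old. The starch group (n = 11) had received a milk replacer to which wheat was added, and the control group (n = 10) the milk replacer alone. Piglets are numbered within their diet, and the labels give no sex, litter or batch. RNA sequencing gave 6719264 to 8610458 expected counts per piglet. An expected count is an estimated number of reads per transcript and need not be whole. Levels are given as CPM, counts scaled to the size and composition of each library, and, where genes are set side by side, as the authors' deposited FPKM, which is per kilobase of transcript.

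A group of 3 libraries stood apart in the genes of the absorptive cell. The enterocyte marker score, the mean log2 CPM of 12 genes relative to the 21 piglets, was -6.29 in starch 3, -4.60 in control 5 and -4.86 in control 8, and between 0.16 and 2.03 in the other 18 piglets. The pan-epithelial score, a mean over 10 genes that can hide single low members, was not low there. It was 0.13 in starch 3, -0.02 in control 5 and 0.46 in control 8. In whole tissue, fewer endocrine cells and less hormone message per cell cannot be told apart.

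Per length, GCG was the most abundant of the 8 genes. GCG encodes proglucagon, and its deposited FPKM had a median of 235 over the 21 piglets. NTS, the neurotensin gene, followed at a median of 199 FPKM, SST, the somatostatin gene of D cells and enteric neurons, at 117, CHGA at 101 and GIP at 92.8. CHGB at 12.4, CCK at 3.94 and NEUROD1 at 0.94 lay far lower. The 5 most abundant genes overlapped between piglets. GCG exceeded NTS in 15 of 21 piglets, NTS exceeded SST in 17, SST exceeded CHGA in 15 and CHGA exceeded GIP in 12. The length implied by the FPKM was shorter than the listed one, 290 against 351 for SST and 1539 against 1593 for CHGA. The order of SST and CHGA depends on which length is used. GIP exceeded CHGB in every piglet, by 1.40 to 15.04 times, and CHGB exceeded CCK in every piglet, while CCK exceeded NEUROD1 in 20 of 21. Message for GIP was thus measured in every one of these distal samples, at a count of at least 40.

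**Figure D1:**
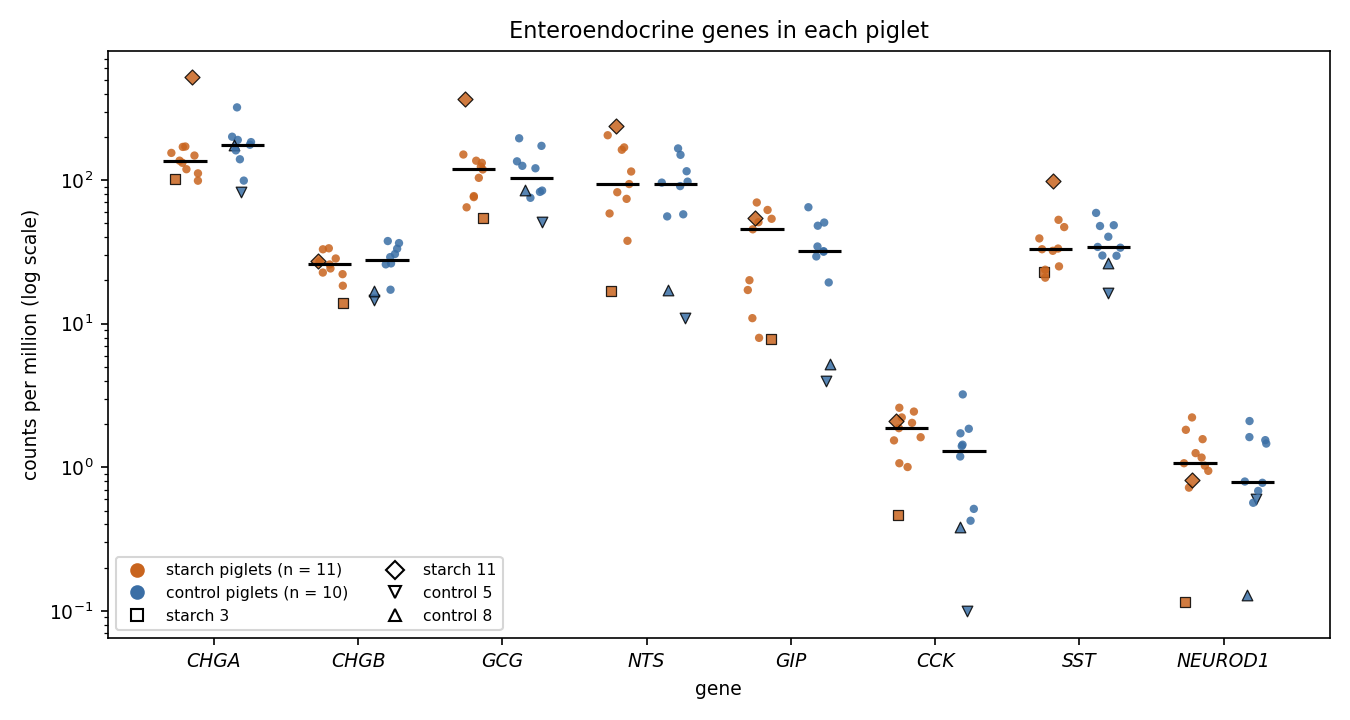
CPM (log scale) of 8 enteroendocrine genes in each piglet, starch piglets (n = 11) left of control piglets (n = 10), with the group median as a bar. Starch 11 had the highest value of CHGA, GCG, NTS and SST, and starch 3, control 5 and control 8 held the lowest values of NTS and GIP.

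None of the 7 tested genes differed between the diets beyond the spread between piglets. In edgeR's quasi-likelihood test across all genes, 0 of 13127 genes passed an adjusted p of 0.05 (0% called), 174 (1.33%) had an unadjusted p below 0.05, and none of the 7 was among either. On starch 5 of the 7 genes read higher and 2 read lower, and their median log2 fold change was 0.18. Without starch 3, control 5 and control 8 the log2 fold changes of the 7 genes were -0.05 for CHGA, -0.17 for CHGB, 0.13 for GCG, 0.26 for NTS, 0.33 for CCK, 0.02 for GIP and 0.01 for SST, with a median of 0.02. Without starch 11 alone 3 of the 7 read higher and 4 lower, with a median of -0.10. Among all 13127 tested genes the counts were 6711 upward and 6416 downward, and the median was 0.00. Fold changes are log2 throughout, starch minus control, and the adjusted p was 0.9998 for each of the 7.

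CHGA encodes chromogranin A, the granin used most often as a marker of endocrine cells. Its CPM ran from 99.1 through a median of 137 to 519 in starch piglets, and from 82.6 through a median of 176 to 321 in control piglets. The groups overlapped, and only 1 of 11 starch piglets, starch 11, lay above the control median. The means were 169 ± 119 CPM on starch (SD, n = 11) and 173 ± 65.0 CPM in control (SD, n = 10), with a log2 fold change of -0.03 (SE 0.27, 95% confidence interval -0.60 to 0.54, unadjusted p = 0.91 and adjusted p = 0.9998 in edgeR). Without starch 11 the value was -0.36 (unadjusted p = 0.067, adjusted p = 0.9999). The sign turned without control 4 (0.11), starch 2 (0.02), starch 3 (0.03), starch 4 (0.03) or starch 9 (0.02).

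CHGB, which encodes secretogranin I, a granin of the same granules, varied least. It read 13.9 to 33.5 CPM on starch with a median of 25.9, and 14.7 to 37.6 CPM in control with a median of 27.7. The ranges nearly coincided. Its log2 fold change was -0.09 (95% interval -0.46 to 0.28), which as a ratio of starch to control runs from 0.727 to 1.21. Its coefficient of variation over the 21 piglets was 26.7%, against a median of 32.1% over all tested genes.

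GCG read 54.3 to 367 CPM on starch with a median of 119, and 50.9 to 196 CPM in control with a median of 103. Starch 11 stood far above the next starch piglet, which read 151 CPM, and the rest of the groups overlapped. The log2 fold change was 0.18 (SE 0.29, 95% interval -0.43 to 0.78, unadjusted p = 0.55), and it was -0.12 without starch 11. NTS read 16.9 to 237 CPM on starch with a median of 93.9, and 11.0 to 166 CPM in control with a median of 93.5. Neurotensin slows gut motility and promotes fat uptake, and its message spanned a wide range within each diet. The log2 fold change was 0.41 (SE 0.43, 95% interval -0.49 to 1.31, unadjusted p = 0.36), while the medians were nearly equal.

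GIP encodes glucose-dependent insulinotropic polypeptide, the incretin released on sugar and fat. It read 7.88 to 69.9 CPM on starch with a median of 45.4, and 3.98 to 64.7 CPM in control with a median of 31.9. The groups overlapped over almost all of their ranges, and no starch piglet lay between 20.1 and 45.4 CPM. The log2 fold change was 0.19 (SE 0.46, 95% interval -0.76 to 1.14, unadjusted p = 0.69). CCK, the gene of cholecystokinin, which drives gallbladder emptying and pancreatic secretion, was near the lower end of detection at 1 to 23 counts per piglet. It read 0.46 to 2.60 CPM on starch with a median of 1.87, and 0.10 to 3.22 CPM in control with a median of 1.30. Its log2 fold change of 0.50 was the largest of the 7 (SE 0.39, 95% interval -0.30 to 1.30, unadjusted p = 0.21), and counting error adds to its spread.

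SST encodes somatostatin, which inhibits the release of other gut hormones. It read 20.9 to 98.4 CPM on starch with a median of 33.0, and 16.4 to 59.1 CPM in control with a median of 34.0. Starch 11 was again the highest, with the next starch piglet at 52.9 CPM. The log2 fold change was 0.09 (SE 0.26, 95% interval -0.44 to 0.62, unadjusted p = 0.73), and it was -0.15 without starch 11. NEUROD1, a transcription factor of late endocrine differentiation, had 1 to 19 counts per piglet, reached 10 counts in 9 of 21 piglets and was not tested. It read 0.12 to 2.22 CPM on starch with a median of 1.07, and 0.13 to 2.10 CPM in control with a median of 0.79, and the groups overlapped.

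**Figure D2:**
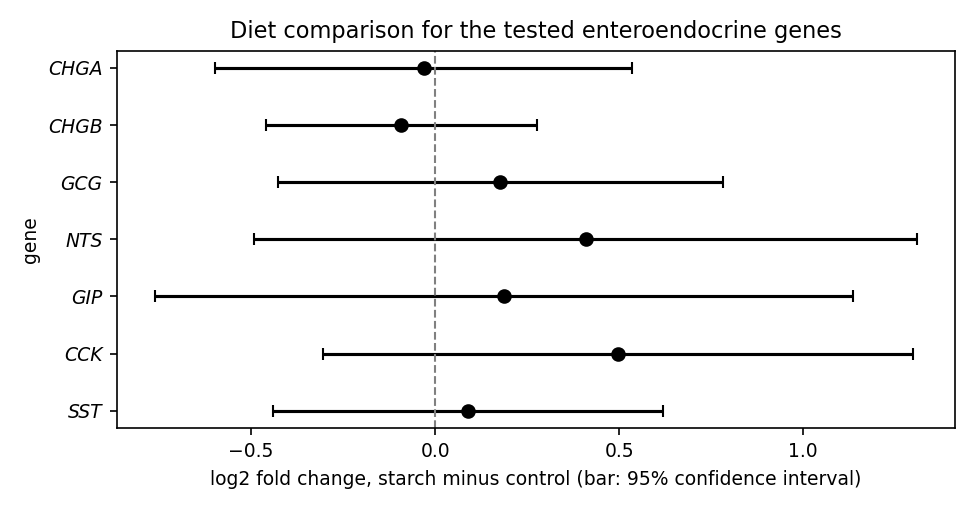
Log2 fold change (starch minus control) of the 7 tested enteroendocrine genes with its 95% confidence interval from edgeR's quasi-likelihood fit. Every interval includes 0, and the widest are those of GIP (-0.76 to 1.14) and NTS (-0.49 to 1.31).

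The spread between piglets was wide. The highest piglet exceeded the lowest by 2.71 times for CHGB, 5.99 times for SST, 6.28 times for CHGA, 7.22 times for GCG, 17.5 times for GIP, 19.2 times for NEUROD1, 21.6 times for NTS and 32.3 times for CCK, whose counts were low. Single libraries set several of these values. Without starch 11 they were 3.89 times for CHGA, 3.84 times for GCG and 3.60 times for SST, and without control 5 they were 14.01 times for NTS and 8.37 times for CCK. Without the 3 piglets low in absorptive genes they were 6.28 times for NTS, 8.77 times for GIP, 7.58 times for CCK and 3.93 times for NEUROD1. Apart from CHGB, the coefficient of variation of the 8 genes was 47.0 to 62.2%. The middle 50% of all tested genes lay between 23.1 and 44.4%, so these 7 genes lay above that range and CHGB within it. The place of 3 of them rested on starch 11: without it CHGA at 34.0%, GCG at 36.4% and SST at 32.9% lay within the middle 50% of all genes, which then ran from 22.7 to 44.0%. NEUROD1 was itself not among the tested genes. Counting error adds to its spread (1 to 19 counts) and to that of CCK (1 to 23 counts).

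Starch 11 held the highest value of 4 of the 8 genes, CHGA at 519 CPM, GCG at 367 CPM, NTS at 237 CPM and SST at 98.4 CPM. The next highest piglet of any diet read 321 CPM for CHGA, 196 CPM for GCG, 205 CPM for NTS and 59.1 CPM for SST. Not every gene was high in this piglet. CHGB read 27.2 CPM there, close to the starch median of 25.9, and GIP (54.4 CPM), CCK (2.10 CPM) and NEUROD1 (0.81 CPM) lay within the range of the other starch piglets. CHGB was therefore 0.0414 of CHGA per length in starch 11, the lowest ratio of the 21 piglets, where the starch median was 0.132 and the control median 0.133. The neuron marker score of starch 11 was -0.32, its pan-epithelial score 0.35 and its goblet cell score 0.85. The part of these cell types in the values of starch 11 was not tested.

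The 3 piglets low in absorptive genes were at the other end. Control 5 held the lowest of all 21 values in 6 of the 8 genes and starch 3 in the other 2, CHGB and NEUROD1. NTS read 16.9 CPM in starch 3, 11.0 CPM in control 5 and 17.1 CPM in control 8, while the other 18 piglets had 37.8 to 237 CPM. GIP read 7.88, 3.98 and 5.26 CPM in the same order, against 7.97 to 69.9 CPM, and CHGB 13.9, 14.7 and 16.9 CPM, against 17.2 to 37.6 CPM. For these 3 genes no other piglet was lower than the 3, by a narrow margin for GIP and CHGB. CHGA and GCG did not follow these genes so closely. CHGA read 101 CPM in starch 3, 82.6 CPM in control 5 and 176 CPM in control 8. The other 18 had 99.1 to 519 CPM, with a median of 158 CPM. GCG read 54.3, 50.9 and 85.3 CPM, against 64.6 to 367 CPM with a median of 123 CPM. GCG in starch 3 and control 5, and CHGA in control 5, were thus also below each of the other 18, while control 8 was within their range for both genes.

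Relative to CHGA, per length, NTS was 0.56 in starch 3, 0.45 in control 5 and 0.32 in control 8, and 1.02 to 5.68 in the other 18 piglets. GIP over CHGA was 0.32 in starch 3, 0.20 in control 5 and 0.12 in control 8, against 0.28 to 1.72. GCG over CHGA was 1.71, 1.96 and 1.53 in these piglets, inside the range of 1.34 to 3.38 of the others, and SST over CHGA was 1.20, 1.05 and 0.79, against 0.90 to 2.14. Relative to CHGA, NTS was thus below every other piglet in all 3 libraries and GIP in control 5 and control 8, whereas GCG was within the range of the others. The score of genes for prohormone processing and secretory granules was not low there. It was 0.23 in starch 3, 0.57 in control 5 and 0.35 in control 8, above the mean of all piglets. Goblet cell scores were 0.62, 1.19 and 1.88 and crypt scores 0.52, 0.69 and 1.10 in the same order. The part of these cell types in the hormone values was not tested.

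**Figure D3:**
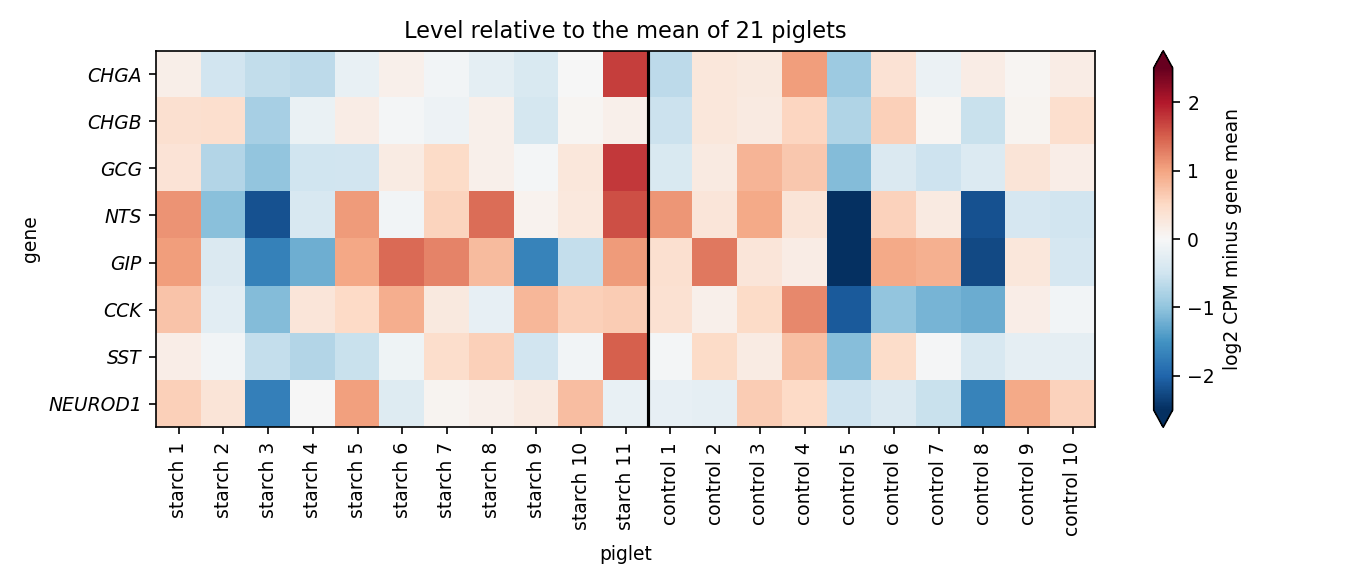
Log2 CPM of each gene minus its mean over 21 piglets, with starch 1 to 11 left of the line and control 1 to 10 right of it (the colour scale ends at 2.5 either way). Starch 11 is high for CHGA, GCG, NTS and SST, and starch 3, control 5 and control 8 are low for NTS and GIP.

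Across the 21 piglets all 21 pairs of the 7 tested genes correlated positively in log2 CPM. By Spearman's rho 11 pairs passed an adjusted p of 0.05 in two-sided permutation tests with 100000 resamples, adjusted over the 21 pairs, and these 11 also passed by Pearson's r, by which 18 passed. The pairs share depth and composition of the libraries, and 4 pairs passed by rho without the 3 piglets low in absorptive genes, those of CHGA with CHGB, GCG and SST, and NTS with SST.

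CHGA and GCG had the highest rho, 0.74 (r = 0.84; adjusted permutation p = 0.0037 for rho and 7e-05 for r). Without the 3 low piglets rho was 0.71 (r = 0.82; adjusted permutation p = 0.0248 and 0.00126, n = 18). Without starch 11 and control 4, the 2 piglets farthest from the CHGA median, it was 0.66 (r = 0.71; adjusted permutation p = 0.0468 and 0.0155, n = 19). Within the diets rho was 0.88 in starch piglets (adjusted permutation p = 0.0145, n = 11) and 0.67 in control piglets (adjusted permutation p = 0.0912, n = 10). Without either set of piglets the pair thus remained past the threshold.

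CHGA and SST had a rho of 0.67 (r = 0.82; adjusted permutation p = 0.00672 for rho and 7e-05 for r). It was 0.62 without the 3 low piglets (r = 0.80, adjusted permutation p = 0.0406 and 0.00147, n = 18) and 0.55 without starch 11 and control 4 (r = 0.63, adjusted permutation p = 0.0528 and 0.0204, n = 19). CHGA and CHGB, the 2 granins, had a rho of 0.64 (r = 0.55; adjusted permutation p = 0.00731 for rho and 0.0134 for r), and 0.62 without the 3 low piglets (r = 0.48; adjusted permutation p = 0.0406 and 0.115, n = 18). Without starch 11 and control 4 rho was 0.60 (r = 0.66; adjusted permutation p = 0.0522 and 0.0161, n = 19), so the call by rho was lost. Within the diets rho was 0.44 in starch piglets (adjusted permutation p = 0.242, n = 11) and 0.88 in control piglets (adjusted permutation p = 0.0323, n = 10).

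NTS and SST had a rho of 0.72 (r = 0.69; adjusted permutation p = 0.0037 and 0.00178). Without the 3 low piglets rho was 0.61 (r = 0.55; adjusted permutation p = 0.0406 and 0.0851, n = 18), and without starch 3 and control 5, the 2 piglets farthest from the NTS median, it was 0.63 (r = 0.56; adjusted permutation p = 0.0468 and 0.0391, n = 19). NTS and GIP had a rho of 0.67 (r = 0.81; adjusted permutation p = 0.00672 and 7e-05). This relation rested in part on the low piglets. Without the 3 of them rho was 0.48 (r = 0.51; adjusted permutation p = 0.138 and 0.109, n = 18), and without starch 3 and control 5 it was 0.56 (r = 0.69; adjusted permutation p = 0.0528 and 0.0155, n = 19). It was 0.54 in starch piglets (adjusted permutation p = 0.178, n = 11) and 0.67 in control piglets (adjusted permutation p = 0.0912, n = 10). Starch 9 had the lowest ratio of GIP to NTS, 0.12 per length, with GIP at 7.97 CPM and NTS at 82.3 CPM, and starch 6 had the highest, 1.15.

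GCG and CCK had a rho of 0.63 (r = 0.66; adjusted permutation p = 0.0078 and 0.00359). Without the 3 low piglets it was 0.51 (r = 0.49; adjusted permutation p = 0.113 and 0.115, n = 18). The pair of lowest rho over all 21 piglets was CHGB and CCK, at 0.22 (r = 0.42; adjusted permutation p = 0.338 for rho), and its rho was -0.22 without the 3 low piglets.

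**Figure D4:**
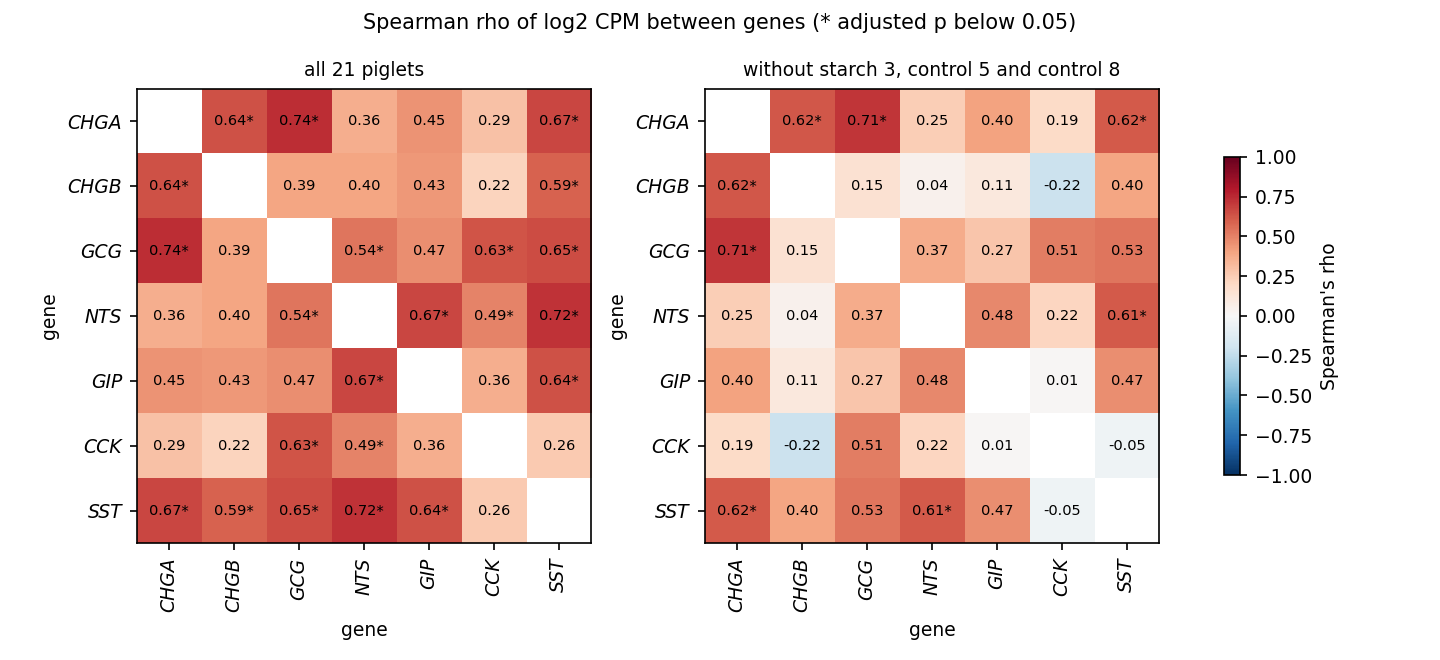
Spearman's rho of log2 CPM between the 7 tested genes, over all 21 piglets on the left and without starch 3, control 5 and control 8 (n = 18) on the right; asterisks mark an adjusted permutation p below 0.05. All pairs are positive on the left, and 4 pairs carry an asterisk on the right.

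**Figure D5:**
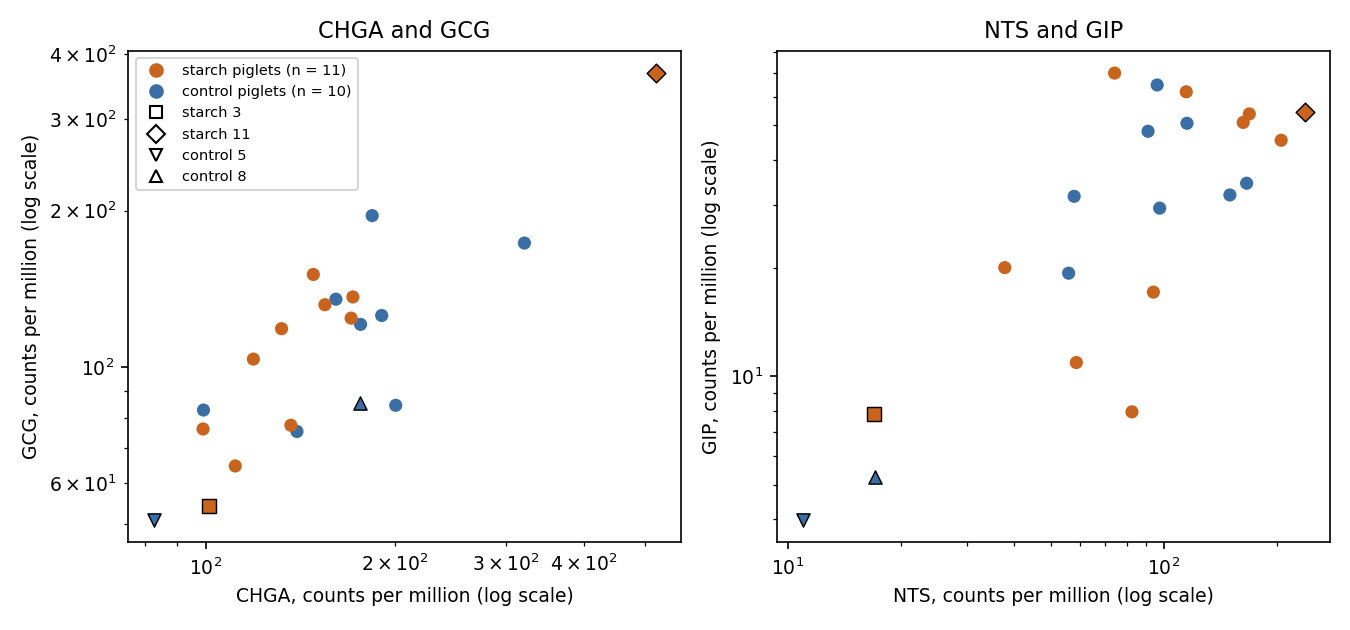
CPM (log scales) of GCG against CHGA and of GIP against NTS in each of 21 piglets (starch, n = 11; control, n = 10). GCG followed CHGA up to starch 11, and the 3 piglets low in absorptive genes lie at the lower left for NTS and GIP.

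Each of the 7 genes was also set against 7 scores of cell types and processes, 49 relations in all, chosen after the values were seen. With the enterocyte score, SST (rho = 0.72, r = 0.56) and CHGB (rho = 0.70, r = 0.77) had an adjusted permutation p of 0.0132 by rho. Without the 3 low piglets the values were 0.60 (r = 0.46) for SST and 0.53 (r = 0.46) for CHGB, with an adjusted permutation p of 0.249 and 0.267 by rho. By r the enterocyte score also passed with NTS (r = 0.80, rho = 0.45, adjusted permutation p = 0.0067 for r) and GIP (r = 0.75, rho = 0.56, adjusted permutation p = 0.0067 for r). Without the 3 low piglets these values of r were -0.01 and 0.34, with an adjusted permutation p of 0.99 and 0.573. CCK had an r of 0.61 with this score and of -0.55 without the 3 low piglets, and a rho of 0.02 and -0.53 (adjusted permutation p for r of 0.0461 and 0.19). CCK also passed by r with the goblet cell score (r = -0.59, rho = -0.43, adjusted permutation p = 0.0461 for r), where r was -0.12 without the 3 low piglets. With the score of crypt stem and cycling cells, GIP had a rho of -0.66 (r = -0.66, adjusted permutation p = 0.0212 by rho) and CHGB one of -0.62 (r = -0.51, adjusted permutation p = 0.0474), and without the 3 low piglets -0.47 (r = -0.45) and -0.40 (r = -0.23) with adjusted permutation p of 0.367 and 0.391. With the score of enteric neurons, which also use SST, CCK and granins, rho lay between -0.37 for CCK and -0.08 for GCG, with an adjusted permutation p of 0.339 or more. For the score of prohormone processing and secretory granules, rho lay between -0.38 for CHGB and NTS and 0.19 for GCG. The adjusted permutation p was 0.339 or more by rho, and no gene passed by r. Without the 3 low piglets rho with this score lay between -0.07 for CHGB and 0.63 for GCG (adjusted permutation p = 0.249 for GCG).

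The tested genes outside the set whose pattern was most like each member were ranked by rho over 21 piglets, as a description. For GCG they included RFX6 (rho = 0.76, and 0.66 without the 3 low piglets), a transcription factor of endocrine cells in gut and pancreas, after CFI (0.78), the gene of complement factor I. For CCK they included PAX6 (0.72, and 0.62 without the 3 low piglets), another endocrine transcription factor, after NUGGC (0.75) and UNK (0.73). GLI1 (0.71), a target of Hedgehog signalling, and AMT (0.70) were among the 3 of CHGA. SAMD11 and CAMTA2 (0.84 each) and the glutamate receptor gene GRIA2 (0.84) were those of CHGB. TBC1D7 (0.86), VRK3 (0.82) and CARD14 (0.81) were those of NTS, ST7L (0.85) was among those of GIP and EXD3 (0.90) among those of SST. The other genes among these ranks carry no symbol in the table of gene names.

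The other genes of the endocrine pathway were given as fixed lists, and 0 of their tested members passed the threshold between the diets, with 0 below an unadjusted p of 0.05 in each of the 6 lists. Of the transcription factors of endocrine cells, 18 of 21 were found and 9 tested, 5 higher and 4 lower on starch, with a median log2 fold change of 0.01. ETV1 had a value of -0.27 at 18.3 ± 4.33 CPM on starch and 22.1 ± 5.83 CPM in control, PAX6 one of 0.44 and FOXA2 one of -0.40. Of the genes for prohormone processing and granules, 23 of 25 were found and 19 tested, 7 higher and 12 lower, with a median of -0.07. CPE, the carboxypeptidase that trims hormone precursors, had 0.26 (34.9 ± 10.1 CPM on starch and 29.1 ± 8.51 CPM in control), the granule peptide gene VGF -0.45 and the convertase gene PCSK2 -0.36.

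Of other gut hormones and peptides, 11 of 15 were found and 5 tested, 1 higher and 4 lower, with a median of -0.21. VIP, the peptide of secretomotor neurons, had -0.24 (24.5 ± 9.59 CPM on starch and 29.0 ± 11.5 CPM in control), GRP 0.18 and TAC1 -0.23. SCT, the secretin gene, MLN, the motilin gene, GAST, NPY and ADCYAP1 stayed below 1 CPM in every piglet, and were picked out after their values were seen. Of genes for serotonin handling, 13 of 15 were found and 8 tested, 5 higher and 3 lower, with a median of 0.06. DDC, the decarboxylase that makes serotonin from its precursor, had -0.23, the serotonin receptor gene HTR4 0.26 and GCH1 0.18.

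Without the 3 piglets low in absorptive genes the medians of 3 of the lists described so far changed sign. They were then 0.07 for other gut hormones and peptides (3 of 5 higher) and 0.00 for prohormone processing and granules (11 of 19 higher). For the transcription factors the median was -0.04 (4 of 9 higher).

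Receptors of the member hormones were mostly near the limit of detection. The list that holds them together with peptidases was not low as a whole, and summed to a median of 716 CPM on starch and 861 CPM in control. Besides the peptidases, SORT1 was not low, at 187 ± 57.2 CPM on starch and 182 ± 41.4 CPM in control. It was picked out after its values were seen. Of the genes in this list 16 of 21 were found and 5 tested, 3 higher and 2 lower, with a median of 0.00 (-0.14 without the 3 low piglets), and 5 of the 11 that were not tested stayed below 1 CPM in every piglet. SSTR1, a somatostatin receptor, had 0.33, GLP2R, the receptor of the glucagon-like peptide that promotes mucosal growth, -0.24, and the brush-border peptidase MME -0.17 (260 ± 188 CPM on starch and 292 ± 193 CPM in control). Of sensors for nutrients and bile acids, 16 of 21 were found and 8 tested, 3 higher and 5 lower, with a median of -0.17. FFAR4, a receptor of long-chain fatty acids, read 1.69 ± 1.12 CPM on starch and 2.94 ± 3.82 CPM in control (log2 fold change -0.80), and TRPA1, a channel of serotonin-producing endocrine cells, 7.38 ± 8.58 CPM on starch and 13.1 ± 16.4 CPM in control (-0.83, 95% interval -1.98 to 0.32).

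Markers of neighbouring cell types did not pass the threshold between the diets either. Enteric neuron markers summed to 165 to 286 CPM on starch and 169 to 319 CPM in control, with 8 of 19 tested members higher and 11 lower on starch (median log2 fold change -0.05). Pan-epithelial markers had 2 of 10 higher (median -0.05) and tuft cell markers 1 of 6 (median -0.15). Without the 3 piglets low in absorptive genes these counts were 12 of 20 for neurons (median 0.07), 5 of 10 for pan-epithelial markers (0.02) and 3 of 6 for tuft cells (-0.04). Goblet cell markers, from the other secretory lineage, had all 7 tested members lower on starch, with a median of -0.56, 3 at an unadjusted p below 0.05 and 0 past the threshold, and their sum ran from 448 to 1686 CPM on starch and from 548 to 3932 CPM in control. Control 8 and control 5 had the highest goblet cell scores of the 21 piglets. Without the 3 piglets low in absorptive genes 6 of the 7 read lower, the median was -0.33 and 0 had an unadjusted p below 0.05, and without control 8 alone the median was -0.30, also with 0. Among markers of other cells, glia had 0 of 3 tested members higher (median -0.07), enterocytes 6 of 12 (0.05), crypt cells 2 of 5 (-0.07), smooth muscle 7 of 8 (0.08) and mast cells 1 of 4 (-0.17), while B cells had all 5 higher (1.66), 3 of them at an unadjusted p below 0.05. The summed B-cell markers ran from 9.72 through a median of 16.04 to 658 CPM on starch and from 10.46 through a median of 24.2 to 146 CPM in control, so the medians of the sums lay the other way from the fold changes. Without starch 10 the median log2 fold change of the B-cell markers was 0.73, with 0 at an unadjusted p below 0.05, and without starch 9 it was 1.26, also with 0. Without the 3 piglets low in absorptive genes the median was 0.41 for smooth muscle, with 8 of 8 higher and 4 at an unadjusted p below 0.05, and 0.17 for crypt cells and -0.13 for enterocytes. In that fit, as in all the alternatives, 0 genes passed the threshold. Across the alternatives 117 to 524 of all tested genes had an unadjusted p below 0.05. The lists were described and not tested as sets. Pancreas and stomach markers summed to at most 14.6 CPM on starch and 13.8 CPM in control.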

How the data were processed

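RNA sequencing data of 21 piglets were used. Each piglet has its own deposited file, in which every listed transcript has a length, an expected count and an FPKM value, per the file headers. The expected counts are as the authors estimated them, without normalisation. FPKM values were already divided by the authors for a transcript length and library depth. The length implied by the FPKM was shorter than the listed one, at a median of 290 against 351 for SST, 375 against 435 for GIP and 1539 against 1593 for CHGA. This raises the FPKM of short genes most. HISAT and DESeq2 are named in the submitters' processing notes. Their versions, the genome build and the counting program were not given in the sources used here. Listed lengths were multiples of 3 for 99.96 to 99.97% of transcripts, so they are coding lengths. Unlisted transcripts were taken as 0.

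Expected counts were summed per gene and rounded, and 14276 of 18661 genes matched a symbol. Totals of 6719264 to 8610458 per piglet set the counting error. The main test was edgeR 4.0.16 (R 4.3.3), quasi-likelihood, TMM scaling, filterByExpr (minimum count 10, minimum total 15), diet as the only term, with Benjamini-Hochberg adjustment over 13127 genes and a threshold of 0.05. Intervals are 95%. Correlations used log2 CPM (prior count 2), and scores are means of centred log2 CPM. limma 3.58.1 and DESeq2 1.42.0 served as alternatives, with others of scaling, filter, block, covariate and left-out piglets. The use of CHGA as a covariate or a subtrahend, and spreads and lists with piglets left out, were chosen after seeing the data.

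All 8 members found are named. Of each other list up to 3 genes of smallest p are named, besides those picked out after their values were seen. For each tested member the 3 genes outside the set of highest rho are named. The members, the lists and the 3 piglets left out together were chosen with earlier results of these data known. The labels name no pairing by replicate number, and the main test used none. Correlations between same-numbered piglets did not show a pairing across the numbers, but cannot exclude one.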

Additional observations from a re-analysis of the deposited data

Results flagged for a closer look

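CHGA in control 4 read 321 CPM, with the next control piglet at 200.5 CPM, a gap that was a larger share of the control group's range than Dixon's 95% critical value for 10 piglets allows. On the deposited FPKM scale CHGA in control 4 was 210.9, and it stood apart by the same measure. Chance flags about 1 in 20 groups, and 8 genes were examined on each scale in the control group. In the same piglet CCK had its highest value of the 21, 3.22 CPM, and SST its second place after starch 11, at 59.1 CPM. The starch group has 11 piglets and was not examined in this way.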

How the results depend on the processing

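The comparison of the diets called 0 genes in edgeR and in each of 36 alternatives, DESeq2 included, with 117 to 524 genes at an unadjusted p below 0.05. None of the 7 tested genes passed in any of them, and CHGB, NTS and CCK kept their direction throughout. On the FPKM scale with limma SST turned to -0.0210 at a pseudocount of 0.5, -0.0213 at 0.1 and -0.0208 at 1, and with the epithelial score as a covariate CHGA turned to 0.0252. With the replicate number as a block, which leaves out starch 11, GCG was -0.0721, GIP -0.0289, SST -0.13 and CHGA -0.30. Without starch 11 and without the block GCG was -0.12, GIP 0.11 and SST -0.15. Same-numbered piglets had correlations of their deviations of -0.34 to 0.48, over 0.1 in 4 of 10 pairs, and 1 of 10 starch piglets correlated best with its own number. Leaving out 1 piglet at a time gave -0.36 to 0.11 for CHGA, -0.16 to -0.03 for CHGB, -0.12 to 0.30 for GCG, 0.24 to 0.58 for NTS, 0.34 to 0.77 for CCK, 0.05 to 0.36 for GIP and -0.15 to 0.19 for SST. Over all piglets 11 pairs passed by rho. Subsets, which hold fewer piglets, gave 4 without the 3 piglets low in absorptive genes, 5 in starch piglets (4 of them among the 11, the other CHGA and GIP), 1 in control piglets and 2 without the 2 farthest piglets. With the pan-epithelial score subtracted 11 passed, 10 of them among the main 11, and with CHGA subtracted 5, of 8 of the 11 that can be tested so. The median rho was 0.49 over the 21 pairs, 0.51 with the score subtracted and 0.37 over 15 pairs with CHGA subtracted. Subtracting a common value from both genes can itself raise or lower their correlation, so these counts support nothing. The sign of the rank correlation turned without the 3 low piglets for CHGB and CCK (-0.22) and for CCK and SST (-0.0464), and without the 2 farthest piglets for CHGB and CCK (-0.0333). The cause of these turns was not tested. Counts of 1 to 23 for CCK and 1 to 19 for NEUROD1 limit what can be read from them.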
